A study of Mus musculus with 29 samples.

Results

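The Notch family described here is the 4 receptors Notch1, Notch2, Notch3 and Notch4, the 4 ligands Dll1, Dll4, Jag1 and Jag2, and the 2 target genes Hes1 and Heyl, as measured by RNA sequencing in ageing mouse muscle. The members were chosen by symbol, and the table holds all 10 among its 22537 gene symbols. All 10 passed the filter on low counts in every comparison.

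RNA came from the whole tibialis anterior (TA), a fast muscle of the lower leg, of male C57BL/6 mice of a National Institute on Aging colony, at 6 months (6m, n = 7), 24 months (24m, n = 7) and 28 months or older (28m, n = 8) by the sample labels. No allele or treatment is given for any group, and all mice had taken tests of physical function. Sequencing was done in 2 runs, 24m with 6m in the first and 28m in the second beside fresh libraries of the same 7 adults, so each old age was set against the 6m libraries of its own run and both comparisons rest on the same 6m mice. The series' design text gives the numbers of 24m and 28m mice the other way round, and the labels give a smaller RNA input than the methods do. Library totals were between 17633475 and 33499162 counts (median 24250878). The 10 markers of muscle fibres, led by the myosin Myh4 and the calcium pump Atp2a1, summed to between 139176 and 231611 CPM (counts scaled to the size of each library) in every library. In 24m replicate 4 and 6m replicate 4 of the first run, several members lay far from the other mice, so results that rest on them are also given without them.

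Notch receptors are single-pass membrane proteins that are activated by ligands on neighbouring cells. Ligand pulling exposes a site for an ADAM protease, gamma-secretase then cuts the receptor within the membrane, and the freed intracellular domain binds Rbpj on DNA and switches on genes of the Hes and Hey families. In skeletal muscle the pathway is known for keeping satellite cells, the muscle stem cells, quiescent, and in vessels for the identity of arteries, sprouting of endothelial cells and upkeep of the mural cells that wrap them.

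The 3 receptors whose mRNA fell at 28m and the fourth, whose mRNA was not called, are shown by the 250 bases before their RefSeq start (build GRCm38.p6), read 5′ to 3′ on the gene's strand. The capitals mark the GC box, GGGCGG or CCGCCC on the other strand, the core of the site that Sp and Klf factors bind.

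Notch1, chr2:26503823-26504072, minus strand: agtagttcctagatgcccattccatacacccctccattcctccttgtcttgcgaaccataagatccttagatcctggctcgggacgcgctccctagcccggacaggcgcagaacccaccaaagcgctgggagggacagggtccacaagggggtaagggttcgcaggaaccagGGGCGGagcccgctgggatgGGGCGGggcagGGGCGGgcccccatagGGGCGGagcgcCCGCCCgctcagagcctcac
Notch2, chr3:98013288-98013537, plus strand: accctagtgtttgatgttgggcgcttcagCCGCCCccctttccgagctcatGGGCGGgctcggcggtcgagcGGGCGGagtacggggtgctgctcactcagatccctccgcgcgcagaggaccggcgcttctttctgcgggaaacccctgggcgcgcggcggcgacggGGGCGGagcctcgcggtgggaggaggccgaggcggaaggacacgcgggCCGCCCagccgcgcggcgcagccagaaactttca
Notch3, chr17:32166891-32167140, minus strand: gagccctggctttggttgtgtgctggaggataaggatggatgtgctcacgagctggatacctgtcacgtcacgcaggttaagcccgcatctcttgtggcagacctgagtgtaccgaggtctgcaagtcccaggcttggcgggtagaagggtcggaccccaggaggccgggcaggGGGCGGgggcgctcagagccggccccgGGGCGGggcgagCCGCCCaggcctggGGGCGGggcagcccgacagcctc
Notch4, chr17:34564045-34564294, plus strand: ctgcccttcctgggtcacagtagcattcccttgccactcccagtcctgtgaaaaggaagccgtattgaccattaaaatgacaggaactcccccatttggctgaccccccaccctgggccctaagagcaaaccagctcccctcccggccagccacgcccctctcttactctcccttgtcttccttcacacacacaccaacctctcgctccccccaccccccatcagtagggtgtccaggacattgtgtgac

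The windows of Notch1, Notch2 and Notch3 held 5, 5 and 4 GC boxes and had GC contents of 66%, 72% and 68.8%, whereas the Notch4 window held 0 and had 58.4%. Of the 9 windows that matched 8 of the 10 members (Dll1 has 2 starts), 5 held a GC box, against 32.7% of all 32851 RefSeq windows of this length. The other windows that held one were those of Jag2, with 5 boxes, and Dll4, with 2. TGGGAA, the core letters that Rbpj binds (TTCCCA on the other strand), were in 0 of the 9 windows and in 21.6% of all. The Notch1 window lies inside the longer gene of the GENCODE annotation, and 2, 11 and 27 bases of the Notch1, Notch2 and Notch4 windows fall in an annotated exon. These matches describe letters in short windows, and no binding was measured.

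In 6m muscle the target Hes1 was the most abundant member for its length, and Notch2 and Dll1 were the least. Levels between genes are given as CPM per kilobase of exon (RPKM), with GENCODE exon lengths, in the 7 6m libraries of the second run. Hes1, a repressor that blocks differentiation factors, stood at 8.99 ± 0.735 (SD), Jag2 at 6.68 ± 0.27, Notch3 at 5.75 ± 0.552, Dll4 at 3.38 ± 0.482 and Jag1 at 2.65 ± 0.157. Notch4 stood at 2.33 ± 0.165, Heyl at 2.25 ± 0.289, Notch1 at 1.77 ± 0.121, Notch2 at 1.55 ± 0.285 and Dll1 at 1.54 ± 0.57. Between neighbours in this order the ranges over mice were separate for Hes1 and Jag2 and for Notch3 and Dll4, and overlapped for the others. Notch4 exceeded Heyl in 4 of 7 mice and Notch2 exceeded Dll1 in 5 of 7, so these pairs cannot be ordered, while Jag2 exceeded Notch3 and Heyl exceeded Notch1 in 7 of 7.

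At 28m Hes1 reached 14.6 ± 5.46 RPKM, its distance from Jag2 widened, and Dll4 (3.64 ± 0.567) stood above Notch3 (2.80 ± 1.17) in 7 of 8 mice. Heyl, Notch1 and Notch2 were the 3 lowest members at 28m, at 1.23 ± 0.298, 1.01 ± 0.33 and 0.946 ± 0.267 RPKM. At 24m Hes1 again stood first (15.8 ± 9.48), Jag2 (5.50 ± 2.11) and Notch3 (4.26 ± 1.5) followed, and Notch1 was last (1.34 ± 0.286).

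**Figure D1:**
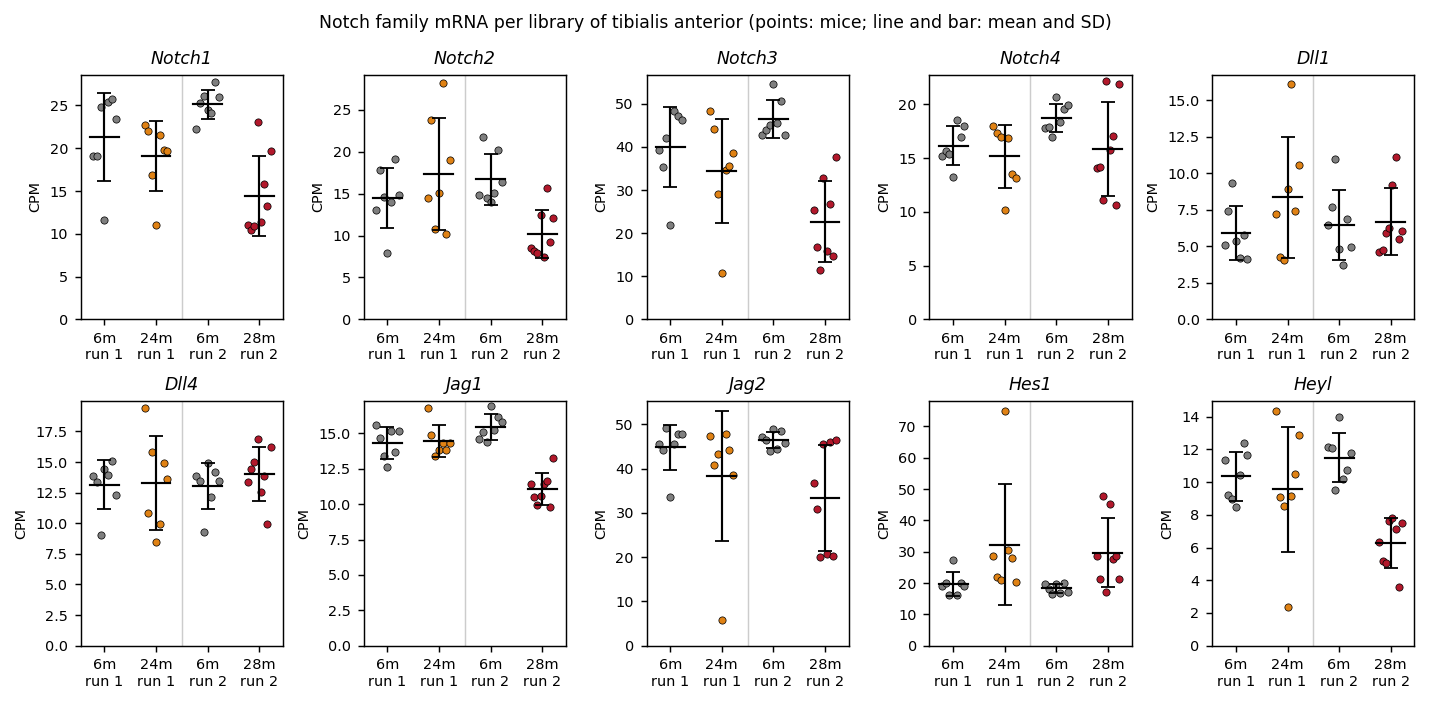
CPM of each member (vertical axes, from 0) in every library, by age and run; points are mice, the line and bar are the mean and SD, n = 7, 7, 7 and 8 from left to right. Notch3, Jag1 and Heyl at 28m lie below all 6m mice of their run, Hes1 lies above them in 7 of 8 mice, and the 28m values of Jag2 run from 20.1 to 46.4 CPM.

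Receptors Notch1, Notch2 and Notch3 fell at 28m and Notch4 was not called. Notch3, the receptor of mural cells and also of muscle precursors, had 42.8 CPM in the lowest 6m mouse, 45.1 at the median and 54.6 in the highest, against 11.4, 21.1 and 37.7 in the 28m group. No old mouse reached the 6m range. The log2 fold change was -1.03 (SE 0.21, edgeR's quasi-likelihood test, Benjamini-Hochberg adjusted p = 0.00166). Notch3 alone among the members was also a DEG, with a log2 fold change of 1 or more in size, as were 5.7% of the 12994 genes tested. It was no longer a DEG after subtracting, per library, how expression varied with exonic length and GC content (the length and GC trend; -0.67), with the 6m libraries of the other run (-0.82) or with upper quartile scaling (-0.998), and leaving out 1 mouse gave -1.17 to -0.93, though its adjusted p stayed under 0.05 in each. The gene lies on chromosome 17 at 32120820-32166852, minus strand (GRCm38), with 8089 exonic bases.

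Notch1, a receptor of endothelial and satellite cells among many others, had 22.3, 25.3 and 27.7 CPM at 6m (lowest, median, highest) and 10.4, 12.3 and 23 at 28m. Of the 8 old mice 7 lay below every 6m mouse, and replicate 4, at 23 CPM, lay within the 6m range. The log2 fold change was -0.79 (SE 0.16, adjusted p = 0.00157), and -0.24 (adjusted p = 0.0508) with the length and GC trend removed. Against the first-run 6m libraries it was -0.56 by the same test (adjusted p = 0.0504). The gene spans 26457903-26516663 on the minus strand of chromosome 2 and has 14232 exonic bases, the most of the 10 members.

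Notch2, whose product keeps satellite cells quiescent alongside Notch1, had 14, 15.1 and 21.8 CPM at 6m and 7.47, 8.92 and 15.7 at 28m. Replicate 6 at 28m lay within the 6m range and the other 7 mice lay below it. Its log2 fold change was -0.71 (SE 0.16, adjusted p = 0.00308), and -0.25 (adjusted p = 0.0764) with that trend removed. Against the first-run 6m libraries it was -0.50 by the same test (adjusted p = 0.0597). The gene lies on chromosome 3 at 98013527-98150361, plus strand.

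Notch4, a receptor of endothelial cells on chromosome 17 (34564268-34588503, plus strand), had 17, 18.4 and 20.7 CPM at 6m and 10.7, 15 and 22.2 at 28m. The old mice spread to both sides: 5 lay below all 6m mice and 2 lay above them. The log2 fold change was -0.24 (95% confidence interval -0.52 to 0.05, adjusted p = 0.185).

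Both Jagged ligands were called lower at 28m, Jag2 close to the threshold, and neither Delta-like ligand was called. Jag1, a ligand of endothelial and mural cells, had 14.4, 15.3 and 16.9 CPM at 6m and 9.80, 11 and 13.3 at 28m. The groups did not overlap, and the log2 fold change of -0.48 carried the smallest standard error of the 10 members (0.077, adjusted p = 0.000541). With the length and GC trend removed it was -0.30 and still passed. The gene lies on chromosome 2 at 137081456-137116644, minus strand.

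Jag2, the second Jagged ligand, on chromosome 12 (112907819-112929776, minus strand), had 44.1, 46.6 and 48.9 CPM at 6m and 20.1, 33.8 and 46.4 at 28m. The old mice were spread widely: replicates 3, 5 and 7 had 20.1, 20.7 and 20.2 CPM, replicates 1 and 2 had 36.7 and 31, and replicates 4, 6 and 8 had 45.7, 46.0 and 46.4, within the 6m range. In replicates 4, 6 and 8 the correlation of expression with exonic length, measured per library against 6m, was -0.20, -0.31 and -0.17, against -0.53 to -0.49 in the other 5 old mice, and its part in the Jag2 values was not tested. The log2 fold change was -0.48 (SE 0.18, adjusted p = 0.0431), and the call was lost with the mouse as a block (-0.53, SE 0.3, adjusted p = 0.158), with the length and GC trend removed (-0.14, adjusted p = 0.288) and in 12 of 15 fits that left out 1 mouse.

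Dll4, the ligand of endothelial tip cells, on chromosome 2 (119325784-119335962, plus strand), had 9.30, 13.5 and 14.9 CPM at 6m and 9.91, 14.1 and 16.9 at 28m. The groups overlapped over most of their range, and the log2 fold change was 0.11 (95% confidence interval -0.12 to 0.33, adjusted p = 0.45). Dll1, the ligand that differentiating muscle cells present to satellite cells, on chromosome 17 (15367354-15376872, minus strand), had the lowest median CPM of the members at 6m and 28m. It had 3.69, 6.43 and 10.95 CPM at 6m and 4.6, 6 and 11.1 at 28m, and its log2 fold change was 0.06 (95% confidence interval -0.40 to 0.51, adjusted p = 0.855). At this spread between mice, the values are compatible with changes of Dll1 within this interval.

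The target genes moved in opposite directions at 28m. Heyl, a repressor of the Hey family that is strong in mural cells, had 9.52, 11.8 and 13.95 CPM at 6m and 3.59, 6.75 and 7.81 at 28m. Every old value lay under every 6m value, and the log2 fold change was -0.87 (SE 0.15, adjusted p = 0.000711). The gene lies on chromosome 4 at 123233556-123249875, plus strand.

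Hes1, on chromosome 16 (30064384-30067796, plus strand), had 16.6, 18.2 and 20.1 CPM at 6m and 17.3, 28.2 and 47.6 at 28m. Of 8 old mice 7 lay above every 6m mouse, replicates 3 and 5 highest with 47.6 and 45.3 CPM, and replicate 4 lay within the 6m range. The log2 fold change was 0.71 (SE 0.19, adjusted p = 0.00766), or 0.37 (adjusted p = 0.0554) with the length and GC trend removed, and with 2037 exonic bases Hes1 is the shortest of the 10 members.

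Over the family, 6 of 10 members were lower at 28m, 1 was higher and 3 were not called, where 22.9% of all genes tested were called lower and 24.3% higher (47.3% in either direction). The median log2 fold change was -0.48 over the members and 0.01 over all genes. For 3 members (Notch3, Jag1 and Heyl) no old mouse reached the 6m range from below, which held for 6.66% of all genes. The count of lower members was 3 with the trend on gene length and GC content removed (15.6% of all genes lower), and 3 with the 6m libraries of the other run (11%). Notch1 (-0.24), Notch2 (-0.25), Jag2 (-0.14) and Hes1 (0.37) lost their calls with the trend removed.

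**Figure D2:**
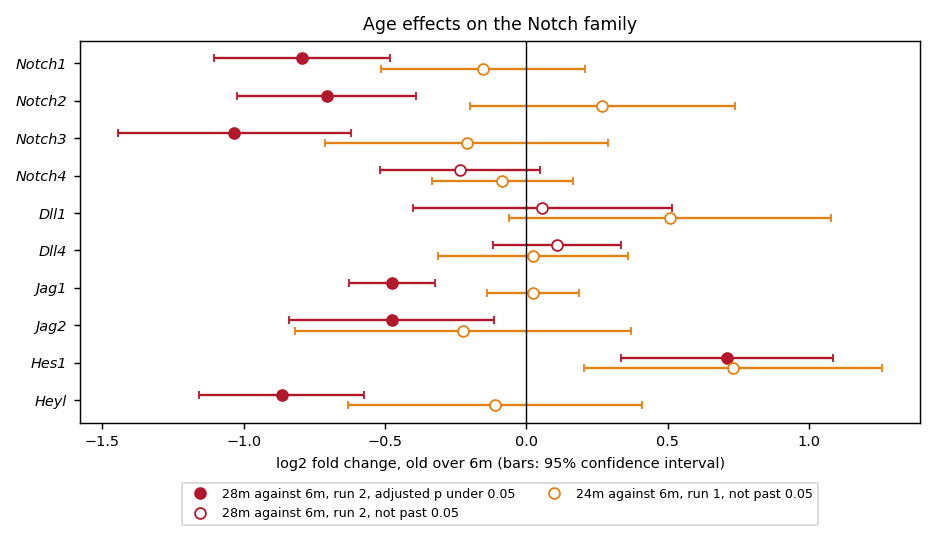
Log2 fold change of each member (horizontal axis; bars are 95% confidence intervals) at 28m (red) and at 24m (orange), each against 6m within its run; filled points have an adjusted p under 0.05. At 28m 7 members are filled, from -1.03 for Notch3 to 0.71 for Hes1, and none at 24m.

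At 24m none of the 10 members was called, in a comparison where 0.084% of 13103 genes were (3 lower and 8 higher). DESeq2 called 45 genes lower and 170 higher, and 0 members. Hes1 was the only member among the 11.8% of genes with an unadjusted p under 0.05 in edgeR's quasi-likelihood test, with a log2 fold change of 0.73 (SE 0.27, adjusted p = 0.343). It had 16.1, 18.9 and 27.4 CPM in the first-run 6m libraries (lowest, median, highest) and 20.4, 28.0 and 75.1 at 24m, and 4 of 7 old mice lay above all 6m mice. The highest value was that of replicate 4, in which Jag2 (5.81 CPM), Notch3 (10.9), Notch1 (11) and Heyl (2.36) were each the lowest of the 24m mice.

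Log2 fold changes of the other members at 24m were between -0.22 (Jag2, SE 0.3) and 0.51 (Dll1, SE 0.29). Jag1 had the narrowest interval, with 12.6 to 15.6 CPM at 6m, 13.4 to 16.8 at 24m and a log2 fold change of 0.02 (95% confidence interval -0.14 to 0.19). Notch2 (0.27, SE 0.24) had 7.96 to 19.1 CPM at 6m and 10.2 to 28.2 at 24m, with 2 of 7 old mice above all 6m mice. Without 24m replicate 4, Hes1 stood at 0.36 (SE 0.13, adjusted p = 0.314), Jag2 at -0.03 and Notch3 at -0.06. Without replicate 4 of both ages, Hes1 stood at 0.46 (SE 0.12, adjusted p = 0.0746) and still 0 members were called (0.921% of genes).

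A direct test of the 28m effect minus the 24m effect called 0 of 13455 genes and 0 members, with 12% of genes and 5 members at an unadjusted p under 0.05. Those 5 were Jag1 (difference -0.48, SE 0.099), Notch2 (-0.96, SE 0.29), Notch1 (-0.63, SE 0.24), Heyl (-0.74, SE 0.3) and Notch3 (-0.81, SE 0.33), with adjusted p between 0.398 and 0.399 (edgeR's quasi-likelihood test). For Hes1 the difference was -0.01 (95% confidence interval -0.69 to 0.67). Without 24m replicate 4 these 5 members passed the threshold (adjusted p between 0.0389 and 0.0415), where 3.36% of all genes were lower by this measure. Without 6m first-run replicate 4 as well, 0 of 13499 genes and so 0 members passed (adjusted p for the 5 members between 0.0773 and 0.0784). With all libraries kept, DESeq2 called 3 genes lower and 1 higher, with Jag1 the only member among them (-0.48, adjusted p = 0.0101).

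Comparing libraries of the same 6m mice between runs, with age held fixed, called 0 of 12884 genes and 0 members (8.17% of genes and Notch1, Notch2 and Notch4 had an unadjusted p under 0.05 in edgeR's quasi-likelihood test). The members' log2 differences, second run minus first, were between -0.09 (Hes1) and 0.26 (Notch1). Receptors differed by 0.22 to 0.26, and by 0.14 (Notch1), 0.14 (Notch2), 0.07 (Notch3) and 0.15 (Notch4) without mouse 4, when 83 genes were called lower, 103 higher and still 0 members. In mouse 4 the libraries differed by 1.32 for Notch3, 1.06 for Notch1, 0.81 for Notch2 and 0.71 for Heyl, all higher in the second run, and by -0.47 for Hes1.

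**Figure D3:**
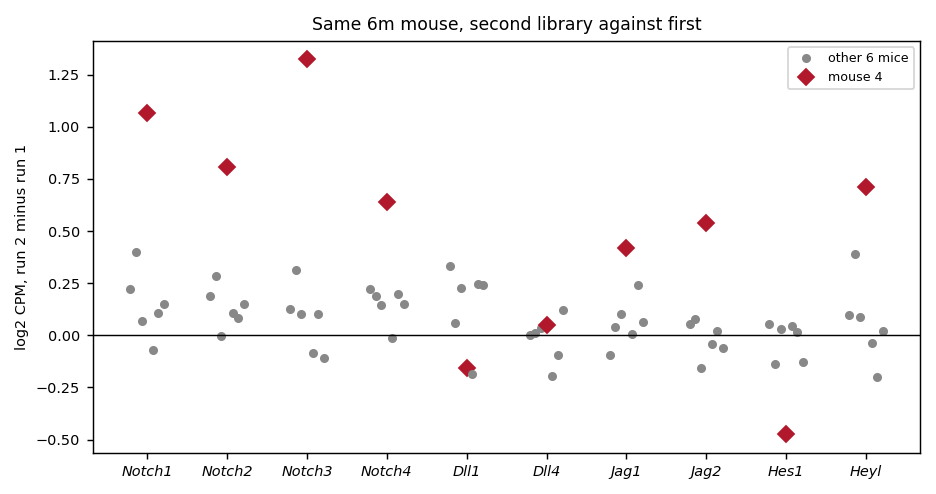
Log2 CPM of the second library minus that of the first (vertical axis) for each member in the 7 6m mice; red diamonds are mouse 4 and grey points the other 6. Mouse 4 lies above the others for the 4 receptors, Jag1, Jag2 and Heyl, and below them for Hes1.

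Long genes were lower at 28m as a class, and 7 of 10 members exceeded the median exonic length of 4489 bases, the exceptions being Hes1, Dll4 and Dll1. Across 12881 genes the log2 fold change fell with exonic length (Spearman rho -0.54 at 28m and -0.27 at 24m, across genes, which are not independent replicates). Between libraries of the same 6m mice, second run minus first, it rose with length (rho 0.46 across 12773 genes). The median log2 fold change of the 1917 genes as long as the 4 receptors was -0.35 at 28m. Measured per library against the 6m libraries of its run, the correlation with length was below 0 in 8 of 8 mice at 28m (-0.53 to -0.17) and between -0.14 and 0.12 in the 6m libraries of that run. It was lowest of all in 6m first-run replicate 4 (-0.55) and reached -0.41 in 24m replicate 4, the libraries in which the members stood apart.

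With the trend on length and GC content removed from each library, Notch3 (-0.67, SE 0.12, adjusted p = 0.000942), Heyl (-0.69, SE 0.13, adjusted p = 0.00136) and Jag1 (-0.30, SE 0.067, adjusted p = 0.00329) stayed lower at 28m, where 15.6% of all genes were lower and 21.6% higher. Those 3 members also kept 8 of 8 old mice below all 6m mice. Notch1 (-0.24, adjusted p = 0.0508), Notch2 (-0.25, adjusted p = 0.0764), Jag2 (-0.14, adjusted p = 0.288) and Hes1 (0.37, adjusted p = 0.0554) did not pass, and Notch4 turned to 0.18 (adjusted p = 0.129). With the first-run 6m libraries as the reference instead, Notch3, Jag1 and Heyl were lower and Hes1 higher (11% and 12% of genes), and Notch1, Notch2 and Jag2 did not pass. Without 6m replicate 4 in that comparison, Notch1 (-0.66, adjusted p = 0.0118) and Notch2 (-0.61, adjusted p = 0.0129) passed as well (17.8% of genes lower). What sets the relation with length was not tested.

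**Figure D4:**
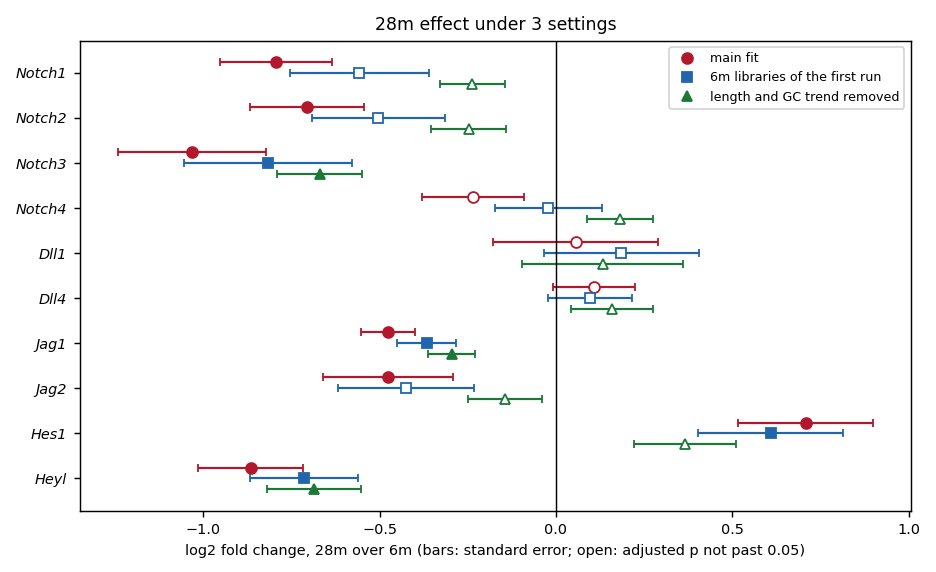
Log2 fold change of each member at 28m (horizontal axis; bars are standard errors) in the reported comparison, with first-run 6m libraries as the reference, and with the length and GC trend removed; filled symbols have an adjusted p under 0.05. Notch3, Jag1 and Heyl are filled under all 3, at -1.03, -0.48 and -0.87 in the reported comparison.

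Of 66 other genes of the pathway, 58 were tested, and 22 were lower at 28m, 11 higher and 25 not called, with a median log2 fold change of -0.12, where 22.9% of all genes were lower and 24.3% higher. With the length and GC trend removed the split was 10 lower and 17 higher (15.6% and 21.6% of all genes). At 24m 0 of the 58 were called.

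Among 10 genes of the proteases that cut Notch, 4 were lower and 2 higher (22.9% and 24.3% of all genes). Adam17 (-0.44, SE 0.11, adjusted p = 0.00489) and Adam10 (-0.25, SE 0.08, adjusted p = 0.017), the proteases of the outer cut, fell. Psenen, a subunit of gamma-secretase, rose (0.55, SE 0.18, adjusted p = 0.0187), as did Psen2 (0.27, SE 0.1, adjusted p = 0.0398), a catalytic subunit. Once the trend was removed, Adam10 and Psen2 passed and Adam17 and Psenen did not. The list then counted 2 lower and 1 higher, where 15.6% and 21.6% of all genes were.

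Of 17 tested genes that glycosylate, ubiquitinate or route Notch and its ligands, 8 were lower and 2 higher (22.9% and 24.3% of all genes). The ubiquitin ligases Dtx4 (-0.73, adjusted p = 0.00239) and Itch (-0.49, adjusted p = 0.00361) and the fucosyltransferase Pofut1 (-0.42, adjusted p = 0.00264) fell. The Fringe enzyme Mfng (0.46, adjusted p = 0.0105) and the glucosyltransferase Poglut1 (0.20, adjusted p = 0.0421) rose, while another Fringe enzyme, Rfng, named after its values were seen, fell (-0.30, adjusted p = 0.00395). Of these, Pofut1 alone did not pass with the trend removed (0.01, adjusted p = 0.911), when the list counted 4 lower and 4 higher (15.6% and 21.6% of all genes).

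Nuclear partners counted 9 lower and 2 higher of 20, where 22.9% of all genes were lower and 24.3% higher. The acetyltransferases Ep300 (-1.18, SE 0.19, adjusted p = 0.000486) and Crebbp (-0.71, SE 0.11, adjusted p = 0.000486) fell. Snw1 (0.49, adjusted p = 0.000615), which binds both Rbpj and the intracellular domain, and the corepressor Cir1 (0.90, adjusted p = 0.0019) rose. Crebbp did not pass with the trend removed (-0.17, adjusted p = 0.33), and Ep300, Snw1 and Cir1 did. Rbpj itself, named after its values were seen, had a log2 fold change of 0.09 (adjusted p = 0.436), and 0.54 (adjusted p = 0.00932) with the trend removed. The list then counted 3 lower and 7 higher, where 15.6% and 21.6% of all genes were.

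Of 8 further target genes tested, 4 were higher at 28m and 0 lower, where 24.3% of all genes were higher. Hey1, a close relative of Heyl, rose by 0.88 on the log2 scale (SE 0.12, adjusted p = 0.000239), from 3.87 ± 0.488 CPM to 7.11 ± 1.23. Cdkn1a, a cell cycle inhibitor that many other inputs also control, rose by 2.2 (SE 0.37, adjusted p = 0.000678) and Hes6, a relative that counters Hes1, by 1.09 (SE 0.22, adjusted p = 0.00154). Myc, named after its values were seen, rose by 0.95 (SE 0.26, adjusted p = 0.00766). These 4 also passed once the trend was removed, at 0.81, 2.17, 0.84 and 0.80. Within the Hes and Hey families Heyl was then lower and Hey1 and Hes6 were higher. Hes1 (0.37) and Hey2 (-0.04), the latter named after its values were seen, were then not called.

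Of 3 other ligands tested, Dlk1, an imprinted ligand without the Delta motif, was lower (-2.01, SE 0.61, adjusted p = 0.0139), with 1.70 ± 2.73 CPM at 6m and 0.417 ± 0.152 at 28m. The 6m SD exceeded the mean. Egfl7, a secreted endothelial protein, was higher (0.48, SE 0.16, adjusted p = 0.02).

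**Figure D5:**
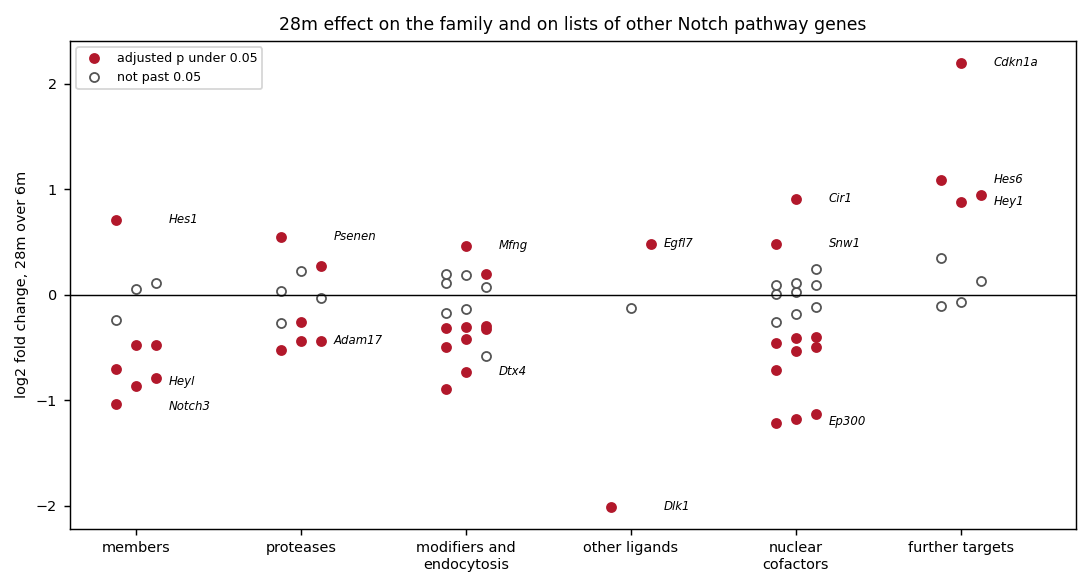
Log2 fold change at 28m (vertical axis) of the 10 members and of 58 other Notch pathway genes in 5 lists; each point is a gene, filled red where the adjusted p is under 0.05, and points are spread sideways for legibility. The further targets hold 4 filled points, all above 0, and the nuclear cofactors 9 below and 2 above.

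Markers of the vessel cells that carry Notch genes were called in both directions at 28m, and in the lower direction alone with the trend removed. Of 12 endothelial markers 8 were lower and 1 higher at 28m (22.9% and 24.3% of all genes; median of the list -0.56), and their summed level was 659 to 738 CPM in the 6m mice and 380 to 589 at 28m. The most abundant were Cdh5 (-0.87, adjusted p = 0.000919) and Ptprb (-0.85, adjusted p = 0.000506), and Cldn5, named after its values were seen, rose (0.73, adjusted p = 0.0083). Of 10 mural markers 5 were lower, 2 higher and 3 not called (median -0.14), summing to 673 to 754 CPM at 6m and 366 to 654 at 28m, led by Abcc9 (-0.80, adjusted p = 0.00702) and Rgs5 (-1.23, adjusted p = 0.0123), while Tagln (0.58, adjusted p = 0.0169) and Higd1b (0.74, adjusted p = 0.0257), named after their values were seen, rose. With the trend removed, 6 endothelial markers were lower and 0 higher, and 4 mural markers were lower and 0 higher (15.6% and 21.6% of all genes), with Cldn5 (0.35), Tagln (0.25) and Higd1b (0.12) no longer called. No marker was at 0. In whole muscle, fewer cells of a type and less RNA per cell cannot be told apart, and the part of these cells in the members' values was not tested.

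Of 8 tested satellite cell markers, 2 were lower and 0 higher at 28m, and their sum overlapped between the ages (70.7 to 143 and 72.4 to 133 CPM). The most abundant, Myod1 (0.40) and Cdh15 (-0.29), were not called, and Pax7 and Fgfr4, named after their values were seen, fell by 1.60 and 0.78 on the log2 scale. Fibro-adipogenic markers counted 5 lower and 1 higher of 8, where 22.9% and 24.3% of all genes were (Gsn -0.91, called; Dcn -0.15, not called), and muscle fibre markers 1 lower and 4 higher of 10 (Myh4 -0.48, called; Atp2a1 -0.33, not called). Macrophage (C1qa and Csf1r most abundant by the mean of all libraries, at 0.89 and -0.40) and adipocyte markers (Cfd and Adipoq, at 1.33 and 1.09) had 0 called of 7 and 5, and 1 of 6 Schwann cell markers was higher (Pmp22, among the most abundant, at -0.08, was not called). With the trend removed, fibro-adipogenic markers counted 2 lower and 0 higher of 8, muscle fibre markers 2 lower and 2 higher of 10, with Myh4 no longer called and Atp2a1 called, and Schwann cell markers 2 higher of 6. Of all genes 15.6% were then lower and 21.6% higher. No marker of any list was called at 24m.

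Between mice of the same age, Heyl varied with Notch3 and Jag2. Over 22 mice, as deviations of log2 CPM from the mean of their age, Notch3 and Heyl had Pearson's r = 0.81 (permutation p = 0.00148, adjusted over 16 relations 0.01) and Spearman's rho = 0.69 (permutation p = 0.00337, adjusted 0.0394). Jag2 and Heyl had r = 0.86 (permutation p = 0.00729, adjusted 0.0167) and rho = 0.66 (permutation p = 0.00492, adjusted 0.0394). Without the 2 mice farthest from the median of the receptor or ligand, r was 0.62 and 0.56. Hes1 varied against Jag2 (r = -0.82, permutation p = 0.00441, adjusted 0.0118) and Notch3 (r = -0.80, permutation p = 0.00291, adjusted 0.0116), but rho (-0.53 and -0.54) did not pass after adjustment (0.0616 for both, permutation test), and r was -0.56 and -0.51 without the 2 mice.

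Of the 16 relations of 8 receptors and ligands with Hes1 and Heyl, 9 passed by Pearson's r and 3 by Spearman's rho. Once length and GC content were accounted for, 0 passed. The relation of Notch3 with Heyl then had r = 0.70 (adjusted permutation p = 0.0594) and that of Jag2 with Heyl r = 0.79 (adjusted permutation p = 0.077). Without 24m replicate 4 and the first-run library of 6m replicate 4, 2 passed, Dll4 with Heyl (r = 0.62, adjusted permutation p = 0.0343) and Jag1 with Heyl (r = 0.74, adjusted permutation p = 0.0125). Of those that no longer passed, Notch3 with Heyl had r = 0.62, Notch4 with Heyl 0.60, Jag2 with Heyl 0.49, Jag2 with Hes1 -0.61 and Notch3 with Hes1 -0.58. The relations of Notch1 with both targets and of Notch4 with Hes1 no longer passed either.

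The genes whose deviations over the 22 mice were most like a member's, among 13455, are given as a description, since the values share depth and the length trend. For Notch3 they were Lrp5 (r = 0.98), Nos1 (0.97) and Zdhhc8 (0.97), for Notch1 Wdfy2, Heatr5b and Slx4 (each 0.93), for Notch2 Tep1 (0.92), Kif3b (0.89) and Dclre1c (0.89), and for Notch4 Phlpp2, Ptprm and Gm4814 (each 0.90). Jag2 was most like Asb16, Gtf2i and Carm1 (each 0.99) and Jag1 most like Scube1 (0.85), Rab2b (0.78) and Ano1 (0.75). Dll4 was most like Arhgef10l (0.86), Sez6 and Zadh2 (each 0.83), and Dll1 most like Ypel2 (0.87), Cdkn1a (0.85) and Zmat3 (0.84). Hes1 was most like Coq7 (0.95), Mrpl19 (0.94) and Gcsh (0.94).

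Heyl was most like the endothelial cadherin Cdh5 (0.95), with Daam2 (0.94) and Nos2 (0.93) next. It was the only member with a marker of any listed cell type among its 50 most like genes, and held 2 of the 12 endothelial ones there, Cdh5 and Kdr. The median correlation with the 12 endothelial markers was nevertheless 0.71 for Heyl, 0.78 for Notch3 and 0.74 for Jag2.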

How the data were processed

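The authors demultiplexed the reads with bcl2fastq 2.20, aligned them to mm10 with STAR 2.5.4b and counted reads per gene with its gene counting option (tool versions from the submitters' processing notes), and deposited these counts without normalization. Which strand setting was used is not given in the sources used here. In GENCODE, which is not the annotation the authors counted with, exons of other genes overlap those of Notch1, Notch2, Notch3, Dll1 and Dll4. The overlap is on the same strand for Notch2 only. How reads in these overlaps were counted was not tested. Labels gave ages, runs and repeats, and 0 columns lacked a sample.

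Counts were filtered with filterByExpr, scaled by TMM and tested with the quasi-likelihood F test of edgeR 4.0.16 (R 4.3.3), with Benjamini-Hochberg adjustment over all genes at 0.05. Standard errors derive from the test. CPM and RPKM used TMM over all 29 libraries, and log2 CPM a prior count of 2. The scripts were tested on simulated data: at a log2 change of 1, 77% of 100 genes were recovered for 28m and 67% for 24m. Permutation tests drew 100000 permutations within ages. The repeat names paired the 6m libraries of a mouse, whose deviations correlated at 0.218 to 0.814. Exon lengths came from GENCODE vM21 and promoters from RefSeq.

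The members and lists were chosen with earlier results of these data known. Named were all members, up to 3 genes of each pathway list and direction with the smallest adjusted p at 28m, the 2 most abundant genes of each marker list, and the 3 genes most like each member; some genes that this rule picks are not reported here. The alternatives were DESeq2 1.42.0, limma-voom (limma 3.58.1), other scalings and filters, thinned counts, the 6m libraries of the other run, removal of the length and GC trend by splines, the mouse as block, and leaving out each mouse. Fits without both replicates 4, and without the first-run 6m replicate 4, were chosen after seeing the data.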

Additional observations from a re-analysis of the deposited data

Results flagged for a closer look

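Dixon's ratio, the gap to the nearest other mouse over the range of the group, was examined in 48 groups of values and exceeded its 95% critical value for 5, where chance gives about 1 in 20 groups. All 5 were a replicate 4 of the first run. Jag2 had 33.7 CPM in 6m replicate 4, against 44.2 to 49.1 in the other mice (ratio 0.68), and 5.81 CPM in 24m replicate 4, against 38.6 to 47.9 (0.779). Hes1 had 27.4 CPM in 6m replicate 4, against 16.1 to 20.0 (0.652), and 75.1 CPM in 24m replicate 4, against 20.4 to 30.4 (0.817). The correlation with exonic length was -0.55 in 6m replicate 4, against -0.02 to 0.37 in the other 6m libraries of the run (0.57). The second library of the same 6m mouse had 48.9 CPM of Jag2, the highest of that run's 6m libraries (44.1 to 48.5 in the others), and 19.7 of Hes1, within the range of the others. The part of library preparation in these values was not tested.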

How the results depend on the processing

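The calls of Notch1, Notch2, Notch3, Jag1, Hes1 and Heyl at 28m held in each of 15 fits that left out 1 mouse, and that of Jag2 in 3 of 15 and in 4 of 11 other alternatives (adjusted p between 0.0185 and 0.288). With the length and GC trend removed, 3 members were lower at 28m and 0 higher (15.6% and 21.6% of all genes), and 0 relations passed. With the 6m libraries of the other run, 3 were lower and 1 higher (11% and 12% of all genes). In the difference between the ages, DESeq2 called 1 member lower (Jag1) among 3 genes lower and 1 higher. For that difference, leaving out mice gave 0 to 5 members, and the 5 came without 24m replicate 4 (3.36% of all genes lower). With the mouse as a replicate block the 28m call of Jag2 was lost and no other member's, Dll4 at 24m turned to -0.00377, and the difference for Hes1 to 0.048. Without both replicates 4 of the first run 2 relations passed.

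The values that changed sign were the following, and none was called. With the trend removed, Notch4 became 0.18 at 28m and 0.18 in the difference, where Jag2 became 0.075, and Jag2 became -0.068 between runs. Relations then became 0.034 for Notch1 with Hes1, -0.12 for Notch1 with Heyl, 0.28 for Notch2 with Hes1, -0.58 for Notch2 with Heyl, 0.31 for Notch4 with Hes1, -0.078 for Dll1 with Heyl, 0.68 for Jag1 with Hes1 and -0.17 for Jag1 with Heyl. Without both replicates 4 besides, the difference was 0.19 for Notch4 and 0.00477 for Hes1, and Jag1 at 24m was -0.015. Dll4 at 24m became -0.015 by limma-voom, and Jag1 at 24m -0.088 against second-run libraries. Leaving out mice gave -0.09 to 0.23 for Dll1 at 28m, -0.092 to 0.13 for Dll4, -0.013 to 0.044 for Jag1 and -0.24 to 0.059 for Heyl at 24m. In the difference it gave -0.0015 to 0.21 for Dll4 and -0.14 to 0.38 for Hes1, and between runs -0.044 to 0.011 for Dll4 and -0.014 to 0.096 for Jag2. The causes were not tested. Dll1 (87 to 515 counts per library) and Heyl (71 to 424) had the lowest counts, and thinning all libraries to the smallest left their standard errors at 28m at 0.23 and 0.16, against 0.23 and 0.15. DESeq2 without a filter called 45 genes lower and 170 higher at 24m, against 3 and 8.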
